A study of Mus musculus with 6 samples.

Results

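Mfsd2a and 9 genes of phosphatidylcholine and phosphatidylethanolamine metabolism were followed in mouse liver, on 3 arrays of the genotype Mig-6 f/f and 3 of the genotype Mig-6 d/d. All animals were males of 8 weeks on a mixed background, kept on standard chow under a cycle of 12 h light and 12 h dark, and livers were taken after food had been withheld for 24 h. Errfi1 encodes Mig-6, which binds and damps the receptor of epidermal growth factor, and d/d livers carry the deleted allele where f/f livers carry the intact floxed one. The labels do not say which Cre made the deletion, in which liver cells it acted, or whether the arrays are of separate animals, and errors here measure the spread between these samples. Mfsd2a was chosen by its low intensity in d/d livers in this same comparison. The other 9 genes were added for their function. The genotype differences of all 10 genes are therefore given as descriptions, without a test. They are 10 of 18193 genes with a probe set of their own on the array, and are read by 22 of its 45101 probe sets. Of these, 20 were brighter than a mean intensity of about 48.4, the limit used here for dim probe sets, and all 10 genes kept at least 1 probe set. The brightest probe set of each gene entered the fit over 13718 genes.

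Mfsd2a is a sodium-dependent carrier of the plasma membrane that takes up lysophosphatidylcholine, in particular with docosahexaenoic acid, and its transcript rises in the liver during fasting. A lysophospholipid that has entered a cell can be given back its missing acyl chain by lysophosphatidylcholine acyltransferases such as Lpcat3, the main such enzyme of hepatocytes. Phosphatidylcholine is otherwise made from choline by the kinases Chka and Chkb, the enzyme Pcyt1a, which forms CDP-choline, and the phosphotransferases Chpt1 and Cept1, and in the liver also by Pemt, which methylates phosphatidylethanolamine. Pcyt2 stands at the matching step of phosphatidylethanolamine synthesis.

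Errfi1 read between 5371 and 5686 on the f/f arrays and between 59.65 and 68.05 on the d/d arrays, as the labels require. The f/f replicate 3 array stood apart. Its controls for 18S ribosomal RNA had a mean of 3807 against 218 to 455.2 on the other 5, and its mean correlation with the others was 0.949 against 0.973 to 0.977. All 9 hepatocyte markers measured were above the dim limit, and their summed intensity was 144618 to 145452 in f/f and 142720 to 144875 in d/d. Of these 9, 2 were higher in d/d and Alb was level. Their differences, d/d minus f/f, ran from -0.18 to 0.14 log2, with a median of -0.017. Markers of endothelial cells, which carry Mfsd2a in the brain, summed to 1919 to 2153 in f/f and 1984 to 2214 in d/d, with 7 of 10 higher in d/d. Kupffer cell markers summed to 3110 to 4368 in f/f and 2672 to 3411 in d/d, with 10 of 11 lower in d/d. Stellate cell markers summed to 3307 to 4018 in f/f and 2667 to 3346 in d/d, with 7 of 10 lower. Over all genes 53.6% were lower. The part of these cell types in the values that follow was not tested. In whole liver, fewer cells of a type and less RNA per cell cannot be told apart.

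Mfsd2a was 3.53 times lower in the d/d livers. Its probe set read 919, 677 and 798 on the f/f arrays of replicates 1 to 3 and 203, 213 and 217 on the d/d arrays. The lowest f/f value lay far above the highest d/d value, and the groups did not overlap. Mean deposited intensities were 798 ± 121 in f/f and 211 ± 6.93 in d/d (SD, n = 3). On the log2(intensity + 16) scale the difference, d/d minus f/f, was -1.82 ± 0.13 (SE from limma, 95% interval -2.12 to -1.52), the 6th lowest of 13718 genes. The spread within d/d was small, with an SD of 0.039 log2 against 0.22 in f/f. Leaving out 1 array moved the difference between -1.93 and -1.71, and without f/f replicate 3 it was -1.82. Mfsd2a has 1 probe set, so the array gives no second reading of it.

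**Figure D1:**
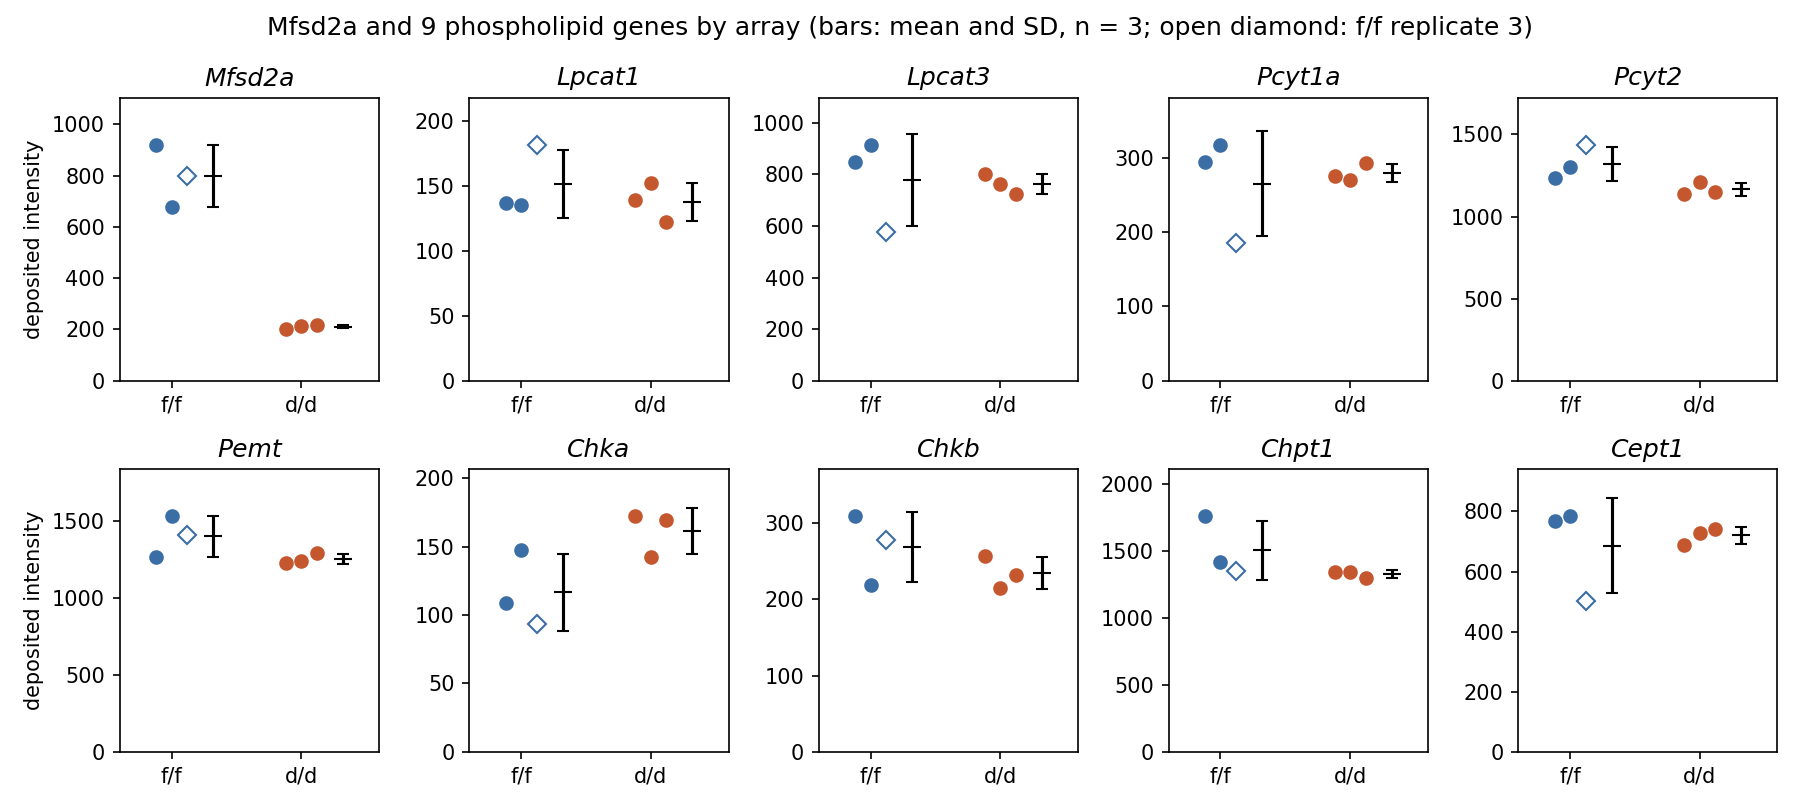
Deposited intensity of the brightest probe set of each gene, from 0, with a point for each array, f/f in blue and d/d in orange, and the mean and SD (n = 3) beside the points; the open diamond is f/f replicate 3. Mfsd2a reads 677 to 919 in f/f and 203 to 217 in d/d, while in Lpcat3, Pcyt1a, Chka and Cept1 the f/f replicate 3 array lies below all other arrays.

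The sequence just upstream of Mfsd2a is shown because Mfsd2a has the lowest difference of the 10 genes. RefSeq (GRCm38.p6) places the 250 bases before its start at chr4:122961189-122961438, minus strand. Capitals mark matches, on either strand, to 5 short motifs of factors that act on fasting genes of the liver: AGGTCA (nuclear receptor core motif), TGACG (cAMP response core motif), GTAAACA (forkhead site), CAAAACA (insulin response element) and AGAACA (glucocorticoid receptor core motif).
Mfsd2a: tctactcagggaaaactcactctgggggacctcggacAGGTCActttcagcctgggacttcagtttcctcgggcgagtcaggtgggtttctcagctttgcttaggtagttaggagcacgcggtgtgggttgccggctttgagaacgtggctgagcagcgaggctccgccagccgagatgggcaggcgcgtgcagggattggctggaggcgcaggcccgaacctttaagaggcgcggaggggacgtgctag
The window holds 1 match, an AGGTCA whose first base lies 213 bases before the start. Such a match, in either orientation, is found in 14.0% of the 32851 windows of this length in the table, and TGACG in 17.8%, GTAAACA in 3.17%, CAAAACA in 5.56% and AGAACA in 16.1%. A match is a run of letters and was not tested as a binding site. An entry was at hand for 9 of the 10 genes, and no AGGTCA lay in the windows of the other 8. Other motifs did lie in some of them, TGACG in a window of Lpcat1 and of Pcyt1a, and AGAACA and CAAAACA in windows of Cept1. Nothing is read from the lack of AGGTCA in so few genes.

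Over the 10 genes, 1, Mfsd2a, passed an adjusted p of 0.05 in the fit over all genes, where 0.0948% of all genes passed, 0.0510% lower and 0.0437% higher in d/d. That gene had been picked for this difference, so nothing is read from the count. The groups did not overlap for 3 genes, Mfsd2a, Pcyt2 and Chpt1, each lower in d/d, against 6.82% of all genes lower, 7.86% higher and 14.7% in either direction. Overlap was judged on the normalized log2 values here and below. The median difference of the 10 was -0.12, and that of the 9 without Mfsd2a -0.098, beside -0.015 for all genes. Mfsd2a was picked for this difference, so nothing is read from its place among the separate genes or in the median of 10. The other 9 genes spanned -0.17 for Chkb to 0.46 for Chka.

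The reacylating enzymes came first in the pathway after uptake. Lpcat3 read 847, 914 and 576 in f/f and 802, 763 and 723 in d/d. The d/d values lay between the extremes of f/f, and the difference was 0.0024 ± 0.17 log2 (95% interval -0.40 to 0.40, or from 1.32 times lower to 1.32 times higher). Lpcat1, best known from lung surfactant, read 137, 135 and 182 in f/f and 139, 152 and 123 in d/d on its brightest probe set, with a difference of -0.098 ± 0.12 (log2). Its groups overlapped on all 5 of its probe sets, 2 of them dim, and their differences ran from -0.17 to 0.20.

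Chka, the first enzyme of the choline pathway, was the member with the highest difference, at 0.46 ± 0.19 log2 (95% interval 0.029 to 0.89). It read 108, 148 and 93.5 in f/f and 172, 142 and 170 in d/d, with f/f replicate 3 as the lowest of the 6 arrays. A single d/d array, replicate 2, fell below the highest f/f array. The other probe sets of Chka gave 0.21 and -0.091, the mean of all 3 gave 0.19, and the brightest gave 0.28 without f/f replicate 3. Chkb, its paralogue, read 309, 219 and 278 in f/f and 258, 215 and 232 in d/d. Those groups overlapped, with a difference of -0.17 ± 0.14 (log2, 95% interval -0.50 to 0.16).

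Pcyt1a, the rate-setting enzyme of the CDP-choline route, read 294, 317 and 185 in f/f and 276, 270.3 and 293 in d/d on its brightest probe set, a difference of 0.12 ± 0.20 (log2). The f/f replicate 3 value was the lowest of the 6. On another probe set of Pcyt1a the same array was the highest, with 272 against 167 and 173 in f/f and 149 to 177 in d/d, and the difference was -0.25 ± 0.17 (log2). Its 4 probe sets thus ran from -0.25 to 0.12. Pcyt2, which activates phosphoethanolamine, read 1232, 1299 and 1435 in f/f and 1138, 1211 and 1151 in d/d, and the groups came near but did not overlap. Its difference was -0.16 ± 0.11 (log2, 95% interval -0.41 to 0.087).

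Chpt1, a cholinephosphotransferase, read 1761, 1418 and 1349.7 in f/f and 1345, 1347 and 1298 in d/d on its brightest probe set. The groups were separate by a few intensity units, with a difference of -0.16 ± 0.12 (log2). Its other 3 probe sets gave -0.26, 0.065 and 0.21, and their groups overlapped. Cept1, which transfers both head groups, read 769, 783 and 503 in f/f and 688, 729.8 and 743 in d/d, with a difference of 0.094 ± 0.17 (log2). Again the f/f replicate 3 value was the lowest. Pemt, the methyltransferase, read 1262, 1528 and 1406 in f/f and 1227, 1241 and 1291 in d/d, a difference of -0.14 ± 0.11 (log2, 95% interval -0.39 to 0.11).

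**Figure D2:**
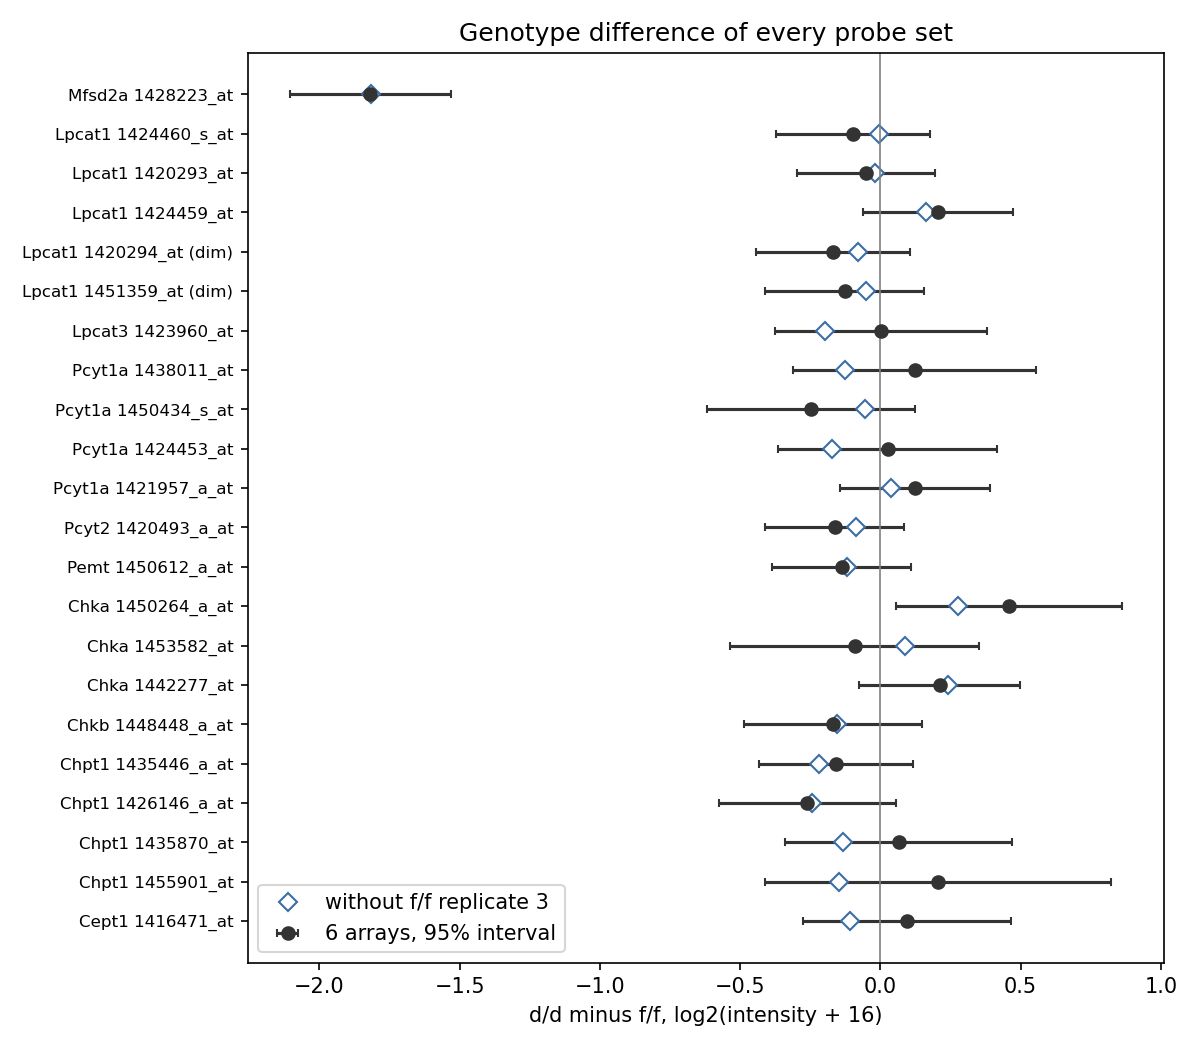
Genotype difference, d/d minus f/f in log2(intensity + 16), of each of the 22 probe sets, with the 95% interval from limma over 6 arrays (filled points) and the difference without f/f replicate 3 (open diamonds); the 2 probe sets marked dim lay under the limit. Mfsd2a lies at -1.82 with either set of arrays. The brightest probe sets of Lpcat3, Pcyt1a and Cept1 cross from above to below 0 when f/f replicate 3 is left out. So do a further probe set of Pcyt1a (0.025 to -0.17) and further probe sets of Chpt1 (0.065 to -0.13 and 0.21 to -0.15). A probe set of Chka crosses upward (-0.091 to 0.086).

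The f/f replicate 3 array had a large part in the values of the 9 other genes. It read outside the range of the other 5 arrays on 16 of the 22 probe sets, as the highest on 7 and the lowest on 9, where each other array did so on 3 to 7. Over all probe sets with 1 gene symbol it did so for 57.4%, and the other arrays for 25.0% to 34.9%. Against the mean of the other f/f arrays it was lower by 0.60 log2 for Lpcat3 and Cept1. It was lower by 0.75 and 0.54 for the brightest probe sets of Pcyt1a and Chka, and by 1.07 for another probe set of Chpt1. It was higher by 0.58 for a second probe set of Pcyt1a and by 0.53 for a second one of Chka. For Mfsd2a it differed by 0.0014.

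Without that array, 9 of the 10 genes were lower in d/d, all but Chka, beside 51.9% of all genes. Of the 9 genes besides Mfsd2a, 8 were lower. The groups then did not overlap for 6, all lower in d/d, Mfsd2a, Lpcat3, Pcyt1a, Pcyt2, Chpt1 and Cept1, where 14.4% of all genes were separate and lower and 13.5% separate and higher. Mfsd2a was picked for this contrast, so nothing is read from its place in these counts. The 1 member past the threshold was Mfsd2a, where 0.598% of all genes passed, and again nothing is read from that call. The differences of the other genes stayed small: -0.20 ± 0.098 for Lpcat3, -0.22 ± 0.12 for Chpt1, -0.13 ± 0.095 for Pcyt1a, -0.11 ± 0.092 for Cept1 and -0.088 ± 0.091 for Pcyt2 (log2, SE from limma, 2 f/f and 3 d/d arrays). Of the 9 other genes, 5 were lower with all 6 arrays, and 5 or 6 were lower when any other array was left out.

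Genes whose profile over the 6 arrays lay nearest to that of Mfsd2a were Slc25a25, a mitochondrial ATP carrier, Igfbp1, which binds insulin-like growth factors in blood, G6pc, which frees glucose from its phosphate, Csad, an enzyme of taurine synthesis, and Moxd1, a monooxygenase-like protein. Likeness was the root mean square distance between log2 values centred on each gene's own mean. It was 0.226, 0.281, 0.361, 0.382 and 0.419 log2 for these 5, and its median over all genes was 0.922. In each of them the lowest f/f value lay above the highest d/d value, so the measure mainly finds genes with a genotype difference of like size. Slc25a25 read 691, 696 and 793 in f/f and 250.45, 208 and 269.73 in d/d. Within a genotype the profiles parted: f/f replicate 3 was the lowest f/f array for Igfbp1 and the highest for Slc25a25, and for Mfsd2a it lay between the others. The other members of the group lay at 0.83 for Chkb to 1.18 for Chka.

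**Figure D3:**
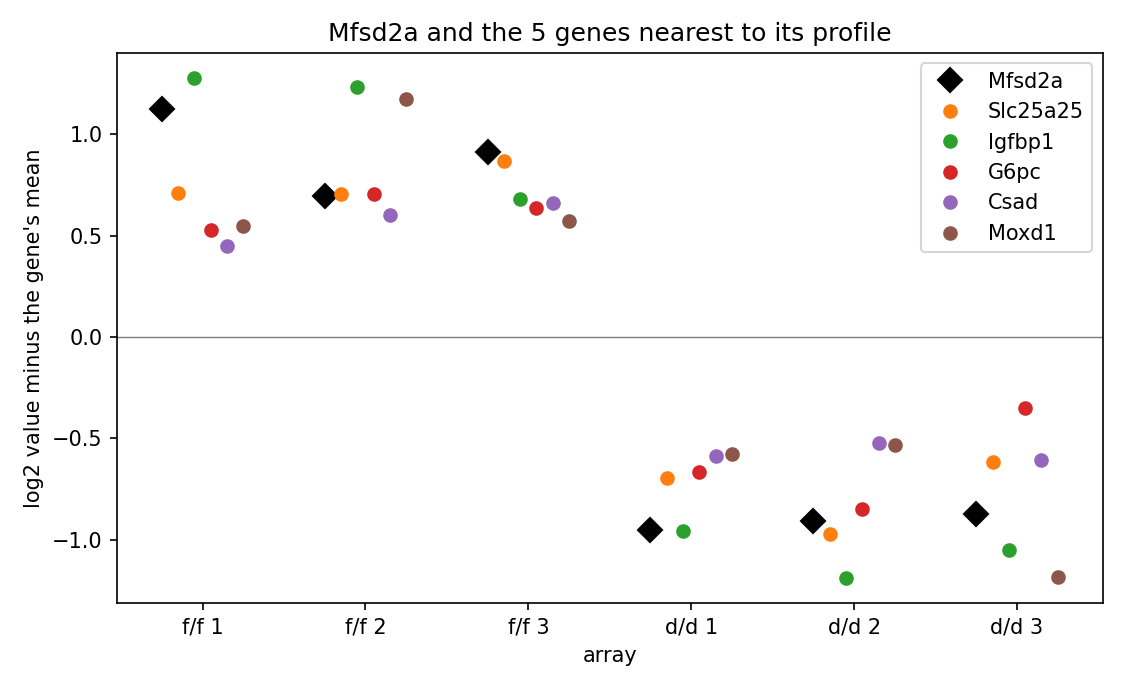
Log2 value minus the gene's own mean over the 6 arrays (y axis) for each array (x axis), with Mfsd2a as black diamonds and its 5 nearest genes as coloured circles set side by side. All 6 genes lie above 0 on the f/f arrays and below 0 on the d/d arrays, with Mfsd2a between 0.69 and 1.12 in f/f and between -0.95 and -0.87 in d/d.

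Igfbp1 and G6pc are fasting genes of the liver that lay near Mfsd2a in this measure, and their upstream windows are set beside that of Mfsd2a above, with the same 5 motifs in capitals (RefSeq, GRCm38.p6, plus strand; chr11:7197537-7197786 for Igfbp1 and chr11:101367466-101367715 for G6pc).
Igfbp1: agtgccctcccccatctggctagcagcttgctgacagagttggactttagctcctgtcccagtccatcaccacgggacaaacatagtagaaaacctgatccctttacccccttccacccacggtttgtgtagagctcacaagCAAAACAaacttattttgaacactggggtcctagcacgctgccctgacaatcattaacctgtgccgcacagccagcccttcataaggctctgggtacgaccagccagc
G6pc: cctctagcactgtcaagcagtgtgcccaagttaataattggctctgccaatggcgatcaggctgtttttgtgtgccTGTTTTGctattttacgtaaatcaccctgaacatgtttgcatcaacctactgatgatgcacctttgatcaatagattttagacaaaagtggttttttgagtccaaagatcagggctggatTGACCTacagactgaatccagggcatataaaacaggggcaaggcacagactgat
The Igfbp1 window has a CAAAACA whose first base lies 108 bases before the start, and the G6pc window has the same motif on the other strand, at 174. G6pc also has an AGGTCA on the other strand, at 54. The Mfsd2a window has no CAAAACA, and the Igfbp1 window no AGGTCA. Slc25a25 and Csad, also near Mfsd2a in this measure, have a TGACG in a window, where 17.8% of all windows have it. None was found for Moxd1, or in the windows of Mfsd2a, Igfbp1 and G6pc. A gene with several windows has more room for a match than that share of windows, and nothing is read from these matches.

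In the list of 22 fasting-induced liver genes, 18 were tested, 15 of them were lower in d/d and 3 higher, beside 53.6% of all genes lower, and the median difference was -0.30, beside -0.015. This list and those below were written with earlier results of these data known, so their counts and medians are descriptions. Igfbp1 and G6pc fell, 2 of 18 beside 0.0510% of all genes, and the other 16 did not pass (limma with Benjamini-Hochberg adjustment, adjusted p = 0.00447 for Igfbp1 and 0.0245 for G6pc). Their differences were -2.13 ± 0.17 and -1.25 ± 0.14 (log2). Among the fits that left out 1 array, the call of G6pc was lost without f/f replicate 1 or 2 and without d/d replicate 1 or 2, where adjusted p ran from 0.0832 to 0.195 (limma with Benjamini-Hochberg adjustment), within 0.0015 to 0.195 over all its alternatives. Got1, the cytosolic aspartate aminotransferase, read 5033, 6330.47 and 6837 in f/f and 2686, 3321 and 2599.65 in d/d. Its groups did not overlap, and its difference was -1.03 ± 0.14 (log2, adjusted p = 0.0700 in limma, Benjamini-Hochberg). It passed without f/f replicate 3 (-0.94, adjusted p = 0.0326 in limma), with a common median, a trended and robust variance, array weights, a pseudocount of 64 and a threshold of 0.1, and its adjusted p ran from 0.00759 to 0.411 over its alternatives. Ppara, the receptor that drives fatty acid oxidation in fasting, had 0.30 ± 0.14 (log2, adjusted p = 0.666, limma with Benjamini-Hochberg adjustment).

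Outside the fasting list, 8 lists of lipid enzymes and carriers were compared, and 0 of their genes passed over all genes in limma with Benjamini-Hochberg adjustment. With an unadjusted p under 0.05 there were 15 of 106, beside 7.84% of all genes. Examples below are the 3 genes of lowest p in a list, or genes listed for their role.

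Phospholipases and lysophospholipases had a median of -0.077 over 25 genes, with 17 lower, and the groups were separate for 5, all lower in d/d, where 6.82% of all genes were separate and lower. Gpcpd1, which splits glycerophosphocholine into choline and glycerol phosphate, had the lowest p of the lists outside fasting. It read 1671, 2144 and 1533 in f/f and 825, 1069.97 and 749 in d/d, with no overlap, a difference of -0.99 ± 0.17 (log2, adjusted p = 0.106 in limma, Benjamini-Hochberg). It passed without f/f replicate 3 (-1.08, adjusted p = 0.0388, limma with Benjamini-Hochberg adjustment) and with array weights, and its adjusted p ran from 0.00943 to 0.501 over its alternatives. Its other probe sets above the dim limit gave -0.75 and -0.39, and a dim one 0.15. Gde1, another glycerophosphodiesterase, had -0.38 ± 0.11 and Lipg, endothelial lipase, -0.41 ± 0.13 (log2, adjusted p of 0.386 and of 0.438 from limma with Benjamini-Hochberg adjustment). Lipg had a mean of 62.9 in f/f and of 42.9 in d/d, under the dim limit, so it passed the filter through f/f. Its other probe sets, both dim, gave 0.11 and -0.40. Nothing is read from its place among the 5 separate genes.

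Among 12 other genes of phosphatidylcholine, phosphatidylethanolamine and phosphatidylserine synthesis the median was -0.093. Etnppl, which breaks down phosphoethanolamine, the substrate of Pcyt2, read 1720, 1580 and 1026 in f/f and 609, 476 and 845 in d/d, with no overlap. Its difference was -1.12 ± 0.25 (log2, adjusted p = 0.209 in limma, Benjamini-Hochberg). It passed without f/f replicate 3 (-1.34, adjusted p = 0.0388, limma with Benjamini-Hochberg adjustment), and with array weights, and the range over its alternatives was 0.00918 to 0.705. A second probe set gave -0.25 ± 0.28, and the mean of both was -0.68. The ethanolamine kinase Etnk1 had 0.41 ± 0.15 and the lipid phosphatase Plpp2 0.51 ± 0.11 (log2), both with separate groups and higher in d/d (adjusted p of 0.535 and of 0.216 from limma with Benjamini-Hochberg adjustment). Etnppl, Etnk1 and Plpp2 were the 3 separate genes of 12, where 14.7% of all genes were separate in either direction. Other probe sets gave 0.17 and lower for Etnk1 and -0.16 for Plpp2, and averaging probe sets gave 0.24 and 0.17. Plpp2 passed with array weights, and its adjusted p in limma ran from 0.0470 to 0.778 over its alternatives. The phosphatidylserine synthases Ptdss1 and Ptdss2 had 0.17 ± 0.18 and -0.19 ± 0.13, the decarboxylase Pisd -0.26 ± 0.25, and Selenoi, the ethanolaminephosphotransferase, -0.17 ± 0.21 (log2). Pcyt1b was dim, and Etnk2 was not analysed here.

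Other lysophospholipid acyltransferases and related acyltransferases had a median of -0.073 over 13 genes. Agpat2 had -0.34 ± 0.10 (log2, adjusted p = 0.384 in limma, Benjamini-Hochberg), Agpat3 -0.22 ± 0.11, Tmem68 -0.19 ± 0.11, Lpcat2 -0.35 ± 0.20, Lpcat4 0.14 ± 0.14 and Mboat7, which prefers lysophosphatidylinositol, 0.067 ± 0.15. The groups were separate for 3, Agpat2, Agpat3 and Tmem68, all lower in d/d, beside the same 6.82% of all genes. Averaged over its probe sets, Lpcat2 had -0.16. Mfsd2b, the closest relative of Mfsd2a and a carrier of sphingosine-1-phosphate in blood cells, was near the dim limit, with 62.4 ± 7.01 in f/f and 44.9 ± 9.76 in d/d (SD, n = 3), a difference of -0.36 ± 0.13 (log2, adjusted p = 0.52 in limma, Benjamini-Hochberg). The Mfsd and Spns carriers, 15 genes, had a median of 0.033. Mfsd2b alone was separate between genotypes, 1 of 15, where 14.7% of all genes were separate in either direction. Its d/d mean lay under the dim limit and a second, dim probe set gave 0.0020, so nothing is read from its separation. Mfsd3 and Flvcr2 had 0.19 ± 0.16 and 0.26 ± 0.24 (log2).

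Genes that carry phospholipids out of the cell or across membranes had a median of -0.017 over 11 genes. Abca1, which loads lipid onto apolipoprotein A-I, had 0.62 ± 0.11 and Atp8b1, a flippase of the canalicular membrane, 0.52 ± 0.12 (log2, adjusted p of 0.123 and of 0.231 from limma with Benjamini-Hochberg adjustment), both with separate groups. They were the 2 separate genes of 11, where 14.7% of all genes were separate in either direction, and nothing is read from this. The other probe sets of Abca1 gave 0.22 and 0.29, and the mean of its probe sets was 0.38. Both genes passed with array weights, and over the alternatives adjusted p in limma ran from 0.0194 to 0.598 for Abca1 and from 0.0437 to 0.786 for Atp8b1. Abcb4, which exports phosphatidylcholine into bile, read 1904, 1447 and 1717 in f/f and 1537, 1346 and 1275 in d/d, with overlap and a difference of -0.27 ± 0.14 (log2). Choline uptake and methyl group metabolism had a median of -0.0065 over 14 genes. Mat1a, which makes the methyl donor that Pemt uses, had -0.30 ± 0.11, Bhmt -0.18 ± 0.11 and the choline transporter Slc44a1 0.25 ± 0.14 (log2, adjusted p = 0.52, 0.777 and 0.758 by the limma fit, Benjamini-Hochberg adjusted). Averaged over probe sets, Slc44a1 had 0.088.

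Enzymes that make or activate the long polyunsaturated fatty acids carried by lysophosphatidylcholine, listed with the fatty acid binding protein Fabp1, had a median of -0.084 over 10 genes. The desaturases Fads1 and Fads2 had -0.34 ± 0.17 and -0.33 ± 0.11, the elongase Elovl5 -0.42 ± 0.18 and the acyl-CoA synthetase Acsl5 0.37 ± 0.13 (log2, adjusted p = 0.69, 0.471, 0.642 and 0.494 by the limma fit, Benjamini-Hochberg adjusted). Fads2 and Acsl5 had separate groups, 2 of 10, where 14.7% of all genes were separate in either direction, and nothing is read from this. A second probe set of Fads1 gave 0.11, and the mean of both was -0.12. Synthesis of phosphatidylinositol, phosphatidylglycerol and cardiolipin had a median of -0.018 over 6 genes, with Ptpmt1 at -0.23 ± 0.099, Cdipt at 0.20 ± 0.17 and Crls1 at -0.16 ± 0.15 (log2, adjusted p = 0.629, 0.836 and 0.841 by the limma fit, Benjamini-Hochberg adjusted). Averaged over probe sets, Cdipt had 0.067.

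**Figure D4:**
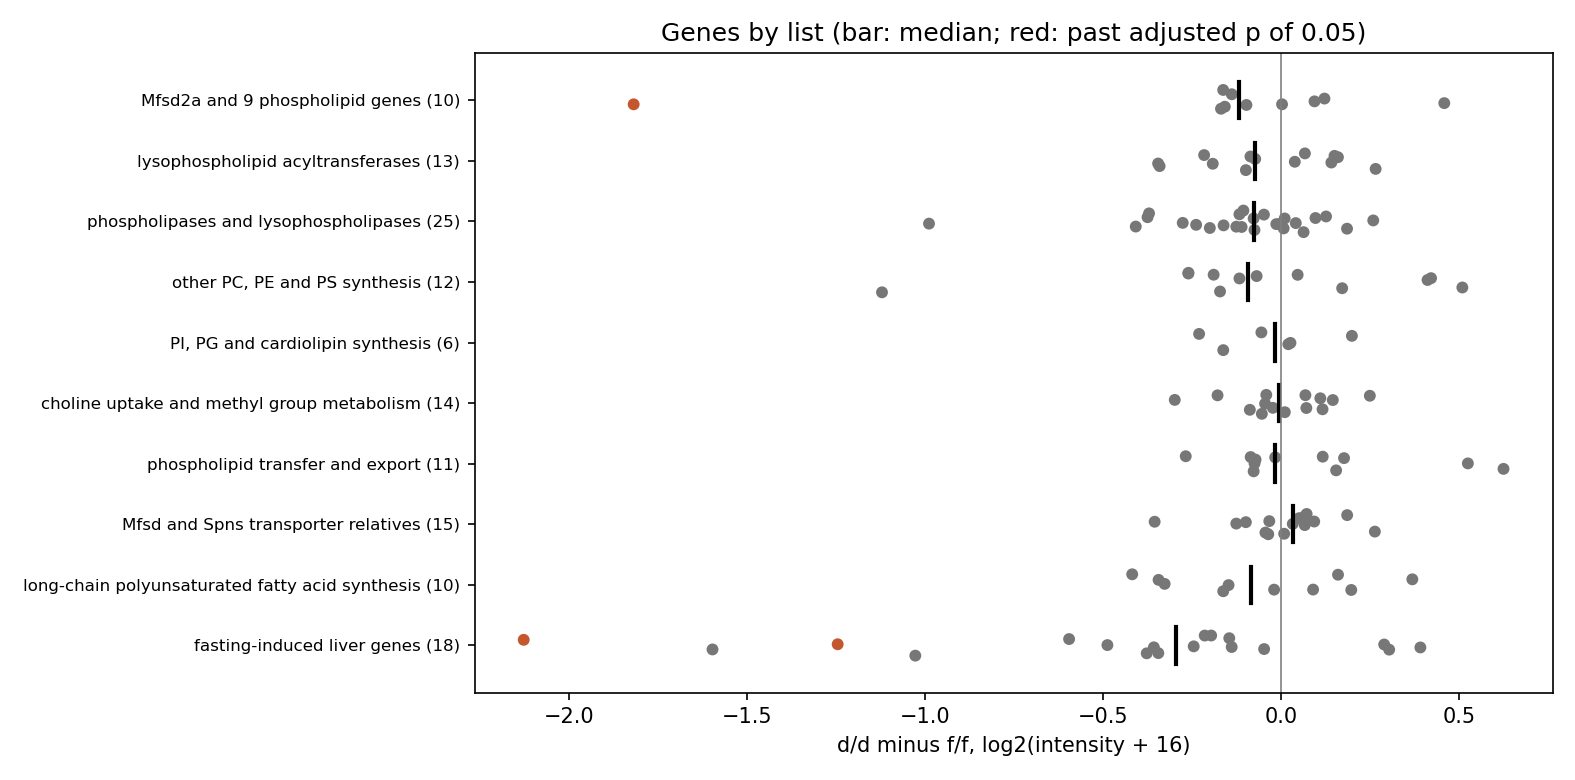
Genotype difference, d/d minus f/f in log2(intensity + 16), of each gene tested, by list with the number of genes in brackets; the vertical bars are list medians and red points passed an adjusted p of 0.05 over all genes. Mfsd2a, Igfbp1 and G6pc are the 3 red points, and the medians lie between -0.12 and 0.033 in all rows but that of the fasting genes, at -0.30.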

How the data were processed

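Liver RNA was hybridized to Affymetrix arrays, as the labels say. Each probe set has a deposited intensity on a linear scale. How the authors summarized, background-corrected and scaled them, and the genome build, are not given in the sources used here. The 64 control probe sets were left out. Array medians differed by up to 0.185 log2, above a tolerance of 0.1, so log2(intensity + 16) values were quantile normalized. Probe sets with 1 gene symbol (34945 of 45101) were named through the platform's annotation, and 1 probe set shared by Chkb with other genes was not used for it. The lowest 40% by mean were left out, and the brightest probe set stood for each gene. Genotypes were compared with limma 3.58.1 in R 4.3.3, with Benjamini-Hochberg adjustment over 13718 genes and a threshold of 0.05. The fit was tested on simulated data. The number of arrays limits the precision. Upstream sequences came from RefSeq. Figures used matplotlib 3.10.9. Groups were taken from the labels. Named were Errfi1, the 10 genes, the genes past the threshold and the 3 of lowest p in each list, 16 genes listed for their role, and the 5 genes nearest to Mfsd2a. The members, lists and motifs were chosen with earlier results of these data known. The 18 alternatives covered scaling, the dim filter, probe sets, variance model, array weights, replicate block, pseudocount, threshold and leaving out each array.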

Additional observations from a re-analysis of the deposited data

How the results depend on the processing

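Mfsd2a was lower in d/d under all 18 alternatives, between -1.93 and -1.63 log2. It had -1.63 with a pseudocount of 64, and with 1 array left out it ranged from -1.93 (f/f replicate 2) to -1.71 (f/f replicate 1). Its calls support nothing, since it was chosen on this contrast; members past the threshold were 1, and 0 with the replicate block. Deviations from the group means correlated at -0.0032, -0.14 and -0.47 for replicate numbers 1, 2 and 3. With 3 arrays a group these deviations depend on each other and on f/f replicate 3. They cannot decide whether the numbers pair the arrays. The block left 1 gene past the threshold over all genes and 0 of the pathway lists, with an adjusted p in limma of 0.0537 for Igfbp1 and 0.124 for G6pc. Over all genes 13 passed, 7 lower and 6 higher, and 23 with a trended and robust variance, 21 at a threshold of 0.1, 214 with array weights (0.178 for f/f replicate 3), and 4 to 82 with 1 array left out, 82 of them without f/f replicate 3. Pathway genes past the threshold were 2, 9 with array weights and 1 to 6 with 1 array left out. Signs turned for Mboat7 (-0.11 averaged over probe sets, -0.065 with array weights, -0.057 without f/f replicate 3 and -0.031 without d/d replicate 3), Ptdss2 (0.013 averaged over probe sets), Pisd (0.022 with array weights, 0.032 without f/f replicate 3), Cdipt (-0.0079) and Flvcr2 (-0.042), both without f/f replicate 3. Over the fits that each lack 1 array, the highest value was 0.14 for Mboat7, 0.32 for Cdipt and 0.46 for Flvcr2, and the lowest was -0.41 for Pisd. The cause was not tested. Among the other members the sign of Lpcat1, Lpcat3, Pcyt1a and Cept1 turned under some alternative, and of the 9 genes 4 were lower averaged over probe sets, 8 with array weights and 6 with the values as deposited.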

Other observations

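A probe set of Ptdss2 that did not stand for the gene in the fit read 586 on the d/d replicate 1 array and 105.05 to 154 on the other 5. The probe set that Chkb shares with 2 other gene symbols read 102, 113 and 169 in f/f and 107, 110.5 and 90.5 in d/d, with f/f replicate 3 as the highest array. Both were picked after their values were seen.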
